A study of Mus musculus with 40 samples.

Results

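The jejunum of saline-treated Sftpd knockout mice was compared with that of wild-type littermates in 20 of the 40 arrays of a study of doxorubicin toxicity in the gut. The 20 arrays are all that carried a saline label. They comprised 10 KO arrays (KO-NaCl3 and KO-NaCl7) and 10 WT arrays (WT-NaCl3 and WT-NaCl7), with 5 mice in each group. All mice were female and 10 to 12 weeks old. The KO mice were Sftpd-/- and had been backcrossed for more than 10 generations onto C57BL/6N, and the WT mice were Sftpd+/+ littermates. Each saline mouse received 1 intraperitoneal injection of isotonic saline on day 0 and was killed on day 3 or day 7, so neither genotype was exposed to the drug. The other 20 mice, 10 KO and 10 WT, received doxorubicin at 20 mg/kg and were used here only as a second set of animals with the same genotypes.

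Sftpd encodes surfactant protein D (SP-D), a secreted collectin made mainly in the lung and also by mucosal epithelia. Collectins bind sugars on the surface of bacteria, viruses and fungi and help phagocytes to clear them, and SP-D also dampens inflammatory signalling. The jejunum is the middle stretch of the small intestine, lined by absorptive enterocytes with goblet, Paneth, tuft and enteroendocrine cells among them, over a lamina propria rich in lymphocytes, macrophages and eosinophils. In a knockout line made by backcrossing, the DNA that flanks the targeted gene is inherited together with the knockout allele. The deleted allele and the flanking segment of chromosome 14 therefore cannot be told apart in a comparison of KO with WT mice.

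RNA was hybridized to whole-transcript arrays that measured 65956 transcript clusters, of which 36559 carried 1 gene symbol, 3042 several and 26355 none. A cluster is the set of probes placed over 1 transcribed locus, and its level is given on the log2 scale, on which a difference of 1 is a doubling of signal. Array medians lay between 4.38 and 4.58. The 23 background probe sets averaged 3.47, and the highest of them reached 6.99. The tissue label fitted its markers: the 13 brush border digestive enzymes had mean levels of 15.31 to 16.09 in KO mice and 15.20 to 15.75 in WT mice. Arrays differed in spread with genotype. The interquartile range of an array was 2.53 to 2.86 in KO mice and 2.37 to 2.62 in WT mice.

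Sftpd itself, the targeted gene, was near the bottom of the scale in both genotypes. In KO-NaCl3 mice it measured 4.31, 4.15, 4.04, 4.27 and 4.01, and in KO-NaCl7 mice 4.01, 4.18, 4.02, 3.98 and 3.99. In WT-NaCl3 mice it measured 4.23, 4.06, 4.06, 4.04 and 4.07, and in WT-NaCl7 mice 4.23, 3.83, 4.06, 4.11 and 4.16. The 2 genotypes overlapped throughout. The mean was 4.10 ± 0.12 in KO mice and 4.09 ± 0.11 in WT mice (SD, n = 10 each), a difference of 0.01 (two-sided exact permutation test within days, p = 0.848). Both means were below the highest background probe set, so the array gave no check of the knockout. The study typed the mice by PCR of their DNA, and the part of the gene deleted in the KO allele is not given in the sources used here. The nearest gene neighbours, which include the collectin Mbl1 and the surfactant protein gene Sftpa1, did not pass the test either, with differences of -0.12 and -0.02.

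Over both days, 67 of the 65956 clusters differed between KO and WT mice at an adjusted p under 0.05 in limma (0.102%). Of these, 30 were higher in KO mice (0.0455%) and 37 were lower (0.0561%). With each array centred on its own median the split was 333 higher of 369, and after a further quantile normalization it was 16 higher of 27. At an unadjusted p under 0.05, 12461 clusters (18.9%) differed. Few of the 67 were well-known genes: 13 carried 1 gene name, 8 carried several symbols, 18 a predicted or clone name and 28 none. In 46 of the 67 both genotype means lay under the highest background probe set, against 51963 of all 65956 clusters. All 10 KO mice lay beyond all 10 WT mice in 23 clusters (0.0349%), of which 17 were among the 67.

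The clusters that passed were gathered around Sftpd on chromosome 14. Sftpd lies at chr14:41172212-41185198 (GRCm38, minus strand). Within 5 Mb of it 10 of 281 clusters passed (3.56%), and within 10 Mb 11 of 591 passed (1.86%). Within 20 Mb the count was 20 of 1330 (1.5%), 10 of them higher and 10 lower in KO mice. On the rest of chromosome 14 it was 3 of 1498 (0.2%), and on all other chromosomes together 44 of 63128 (0.0697%). The 20 clusters within 20 Mb ran from 15.3 Mb on one side of Sftpd to 13.7 Mb on the other. These shares are a description, since neighbouring clusters can overlap and share probes.

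**Figure D1:**
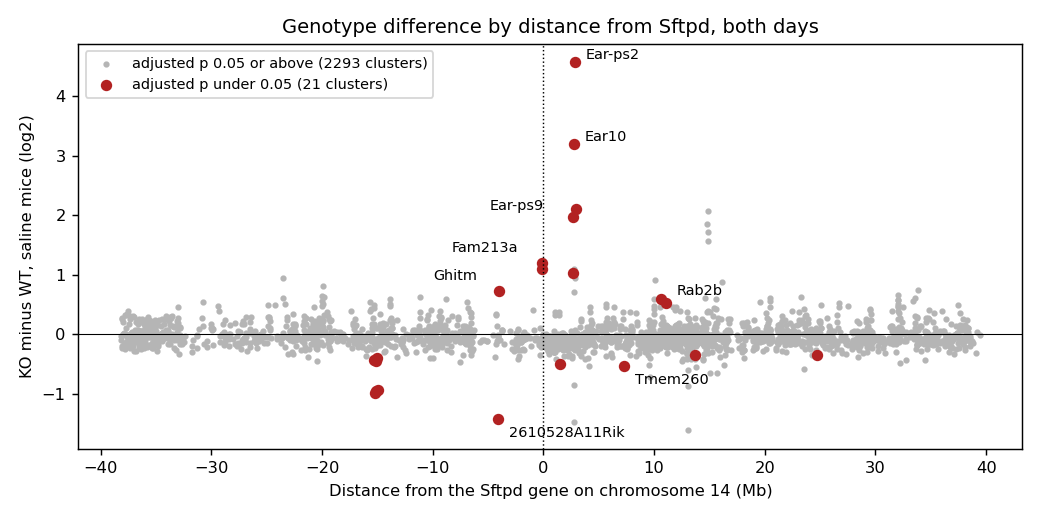
KO minus WT difference (log2, both days of saline) of every cluster within 40 Mb of Sftpd, against its distance from the gene in Mb. Red points passed the limma test (adjusted p under 0.05) and grey points did not. The largest differences, Ear-ps2 at 4.57 and Ear10 at 3.19, stand 2.86 and 2.74 Mb from Sftpd, and 20 of the 21 red points lie within 20 Mb.

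The largest differences belonged to the eosinophil-associated ribonucleases (Ear genes), secreted members of the ribonuclease A family that mouse eosinophils and macrophages make, and to their pseudogenes (Ear-ps). The family lies in 2 blocks of chromosome 14. In the block from 43818765 to 44103538, 5 of 9 clusters rose in KO mice and 4 did not pass, while 0.0455% of all clusters rose. In the block from 51203689 to 51854643, 1 of 5 rose and 4 did not pass. Some members are close copies of each other and others are not. The promoters of 4 members whose clusters rose are shown for their likeness. The windows below run 5′ to 3′ from 250 bases before to 50 after the annotated start (RefSeq, GRCm38.p6). They lie at chr14:43923547-43923846 (minus strand, Ear10), chr14:43819590-43819889 (minus strand, Ear1), chr14:44102404-44102703 (plus strand, Ear2) and chr14:51853518-51853817 (plus strand, Ear6). Capitals mark the longest run of bases that all 4 hold without a mismatch.
Ear10: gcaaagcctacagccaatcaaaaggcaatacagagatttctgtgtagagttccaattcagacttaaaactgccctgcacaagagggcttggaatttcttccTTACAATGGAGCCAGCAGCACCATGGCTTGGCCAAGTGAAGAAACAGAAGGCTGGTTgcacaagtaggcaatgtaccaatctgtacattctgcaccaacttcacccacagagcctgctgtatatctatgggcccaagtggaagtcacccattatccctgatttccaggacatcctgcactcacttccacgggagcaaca
Ear1: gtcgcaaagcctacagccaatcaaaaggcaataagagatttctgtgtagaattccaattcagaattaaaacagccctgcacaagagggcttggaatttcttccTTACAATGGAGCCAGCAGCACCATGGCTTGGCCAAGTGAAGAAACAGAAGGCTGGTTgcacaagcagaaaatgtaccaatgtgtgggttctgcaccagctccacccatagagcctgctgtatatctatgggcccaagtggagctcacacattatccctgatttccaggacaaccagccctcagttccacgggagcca
Ear2: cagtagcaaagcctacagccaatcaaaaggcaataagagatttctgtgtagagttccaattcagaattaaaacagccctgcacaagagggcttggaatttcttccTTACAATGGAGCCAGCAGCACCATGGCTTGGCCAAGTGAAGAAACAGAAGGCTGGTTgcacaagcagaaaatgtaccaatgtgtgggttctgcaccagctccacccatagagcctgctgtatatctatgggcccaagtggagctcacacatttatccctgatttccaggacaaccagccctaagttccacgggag
Ear6: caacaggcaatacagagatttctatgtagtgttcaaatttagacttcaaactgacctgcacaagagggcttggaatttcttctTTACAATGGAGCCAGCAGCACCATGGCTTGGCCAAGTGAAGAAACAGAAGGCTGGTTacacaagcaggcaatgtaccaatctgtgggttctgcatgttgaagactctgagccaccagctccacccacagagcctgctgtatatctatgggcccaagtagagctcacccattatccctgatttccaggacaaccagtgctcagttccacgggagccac
The shared run is 57 bases long and occurs, on either strand, in 4 of 32851 promoter windows of the same length (0.0122%), which are these 4. Its presence in all 4 was fixed by how the run was chosen. A link between promoter sequence and the difference in KO mice was not tested. Over the whole window Ear1 and Ear2 were 97% identical in a global alignment, Ear10 and Ear1 91.4%, Ear10 and Ear2 89.5%, and Ear10 and Ear6 81.5%. Ear14, a member of the second block whose cluster did not pass, was 47.4 to 50.2% identical to these 4. None held TATAAA on either strand, a motif found in 13.6% of all windows. Array probes for such copies can bind transcripts of more than 1 member, so which member was higher is uncertain, and the symbols are those of the array design.

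The cluster named Ear-ps2, a pseudogene of the family, had the largest fitted difference. It measured 9.58, 9.76, 8.69, 8.12 and 10.54 in KO-NaCl3 mice, against 5.01, 4.87, 4.89, 4.93 and 4.91 in WT-NaCl3 mice. On day 7 it measured 10.73, 10.51, 9.72, 10.39 and 8.23 in KO-NaCl7 mice, against 5.07, 5.74, 5.09, 5.17 and 4.93 in WT-NaCl7 mice. The lowest KO mouse was more than 2 log2 units above the highest WT mouse. The means were 9.63 ± 0.97 in KO mice and 5.06 ± 0.26 in WT mice (SD, n = 10 each), a difference of 4.57 ± 0.29 (SE, adjusted p = 1.34e-07). The WT mean lay under the highest background probe set, so the size of the difference depends on a level not clearly above background.

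Ear10, a protein-coding member, showed the same separation. It measured 7.59, 7.49, 6.99, 6.44 and 8.64 in KO-NaCl3 mice, against 4.79, 4.25, 4.40, 4.47 and 4.46 in WT-NaCl3 mice. It measured 7.97, 8.38, 7.89, 9.10 and 7.12 in KO-NaCl7 mice, against 4.51, 4.87, 4.45, 5.05 and 4.49 in WT-NaCl7 mice. Every KO mouse was above every WT mouse, and the difference was 3.19 ± 0.24 (SE, adjusted p = 8.49e-07). As for Ear-ps2, the WT mean lay under the highest background probe set. On day 3 mouse 292 was the highest KO mouse in both clusters, while on day 7 it was mouse 272 in Ear10 and mouse 114 in Ear-ps2.

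The other 4 ribonuclease clusters that passed had smaller differences. Ear-ps9, a pseudogene, measured 6.24 to 7.52 in KO mice (median 6.91) and 4.58 to 5.82 in WT mice (median 4.87), a difference of 1.97 ± 0.17 (SE, adjusted p = 6.02e-06). The cluster shared by Ear12, Ear2 and Ear3 measured 5.32 to 7.47 in KO mice (median 6.64) and 4.03 to 4.81 in WT mice (median 4.52), a difference of 2.10 ± 0.23 (SE, adjusted p = 2.48e-04). In neither did the genotypes overlap. Ear1 differed by 1.03 (5.09 ± 0.33 in KO mice and 4.06 ± 0.31 in WT mice, SD, adjusted p = 0.00245), with the lowest KO mouse at 4.55 and the highest WT mouse at 4.63. Its annotated cluster spans that of Ear-ps9, so the 2 are not independent. The cluster shared by Ear7 and Ear6, in the second block, averaged 5.52 ± 0.24 in KO mice and 4.93 ± 0.09 in WT mice without overlap, a difference of 0.59 (SD, n = 10 each, adjusted p = 0.00173). In all 4 clusters both genotype means lay under the highest background probe set.

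The other 8 clusters of the family did not pass. Ear-ps4 measured 3.48 to 6.18 in KO mice and 3.80 to 5.43 in WT mice, a difference of 0.18. The pseudogenes Ear-ps7, Ear-ps10 and Ear-ps5 had differences of -0.11, -0.16 and -0.11. All 8 had means under the highest background probe set in both genotypes. Other genes that mark eosinophils did not pass: Prg2 (major basic protein) averaged 4.11 ± 0.14 in KO mice and 4.24 ± 0.27 in WT mice, and Epx (eosinophil peroxidase) 3.29 ± 0.06 in KO mice and 3.34 ± 0.08 in WT mice (SD, n = 10 each). Both had means under the highest background probe set. Siglec5, the array's symbol for the eosinophil and tuft cell lectin Siglecf, averaged 7.35 ± 0.72 in KO mice and 6.77 ± 0.66 in WT mice (adjusted p = 0.244). Ccr3, Alox15 and Il5ra differed by 0.41, 0.21 and 0.03 (limma adjusted p = 0.266, 0.448 and 0.796). Their means lay under the highest background probe set in both genotypes. Of the 7 genes measured in the eosinophil list, Ear1 among them, 5 had a difference above 0 and 2, Prg2 and Epx, below 0. In whole jejunum, fewer cells of a type and less RNA per cell cannot be told apart.

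Fam213a was the gene nearest to Sftpd among those that passed. Fam213a (also named Prxl2a) encodes a peroxiredoxin-like antioxidant protein and lies 0.158 Mb from Sftpd. It measured 11.66, 11.57, 11.70, 12.60 and 11.90 in KO-NaCl3 mice, against 10.33, 10.56, 10.15, 10.67 and 11.17 in WT-NaCl3 mice. It measured 11.82, 11.77, 11.27, 11.94 and 11.37 in KO-NaCl7 mice, against 10.16, 10.83, 10.98, 10.18 and 10.59 in WT-NaCl7 mice. The genotypes did not overlap, and the difference was 1.20 ± 0.16 (SE, adjusted p = 0.00173). A cluster with no symbol inside the same locus, at chr14:41008703-41010252, differed by 1.10 (adjusted p = 0.0442).

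Ghitm, which rose, was well above background in both genotypes. It encodes a protein of the inner mitochondrial membrane and lies 4.04 Mb from Sftpd. It averaged 13.98 ± 0.15 in KO mice and 13.25 ± 0.15 in WT mice (SD, n = 10 each), a difference of 0.72 ± 0.07 (SE, adjusted p = 7.63e-05). The lowest KO mouse measured 13.62 and the highest WT mouse 13.52. Its neighbour 2610528A11Rik, known as Gpr15l and coding for a secreted ligand of the receptor GPR15, fell by 1.42 on the log2 scale (5.85 ± 0.52 in KO mice and 7.28 ± 0.58 in WT mice, SD, adjusted p = 0.0173). In 2610528A11Rik the highest KO mouse, at 6.44, was below the lowest WT mouse, at 6.54.

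Farther out on the same side of Sftpd as Fam213a and Ghitm, Tmem254 and Plac9 fell together near 15 Mb from Sftpd. Both are present there in 3 neighbouring copies, Tmem254a to c coding for a membrane protein and Plac9 for a small secreted one, and each copy had its own cluster with symbols of the others. The 3 Tmem254 clusters fell by 0.96, 0.99 and 0.93 on the log2 scale (adjusted p = 8.48e-04, 9.72e-04 and 0.00105). In the brightest of them KO mice measured 6.81 to 7.40 and WT mice 7.82 to 8.91, with no overlap. The 3 Plac9 clusters fell by 0.44, 0.46 and 0.40 on the log2 scale (adjusted p = 0.0267, 0.018 and 0.0175). Since the clusters carry each other's symbols, the 6 may not be independent measurements.

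**Figure D2:**
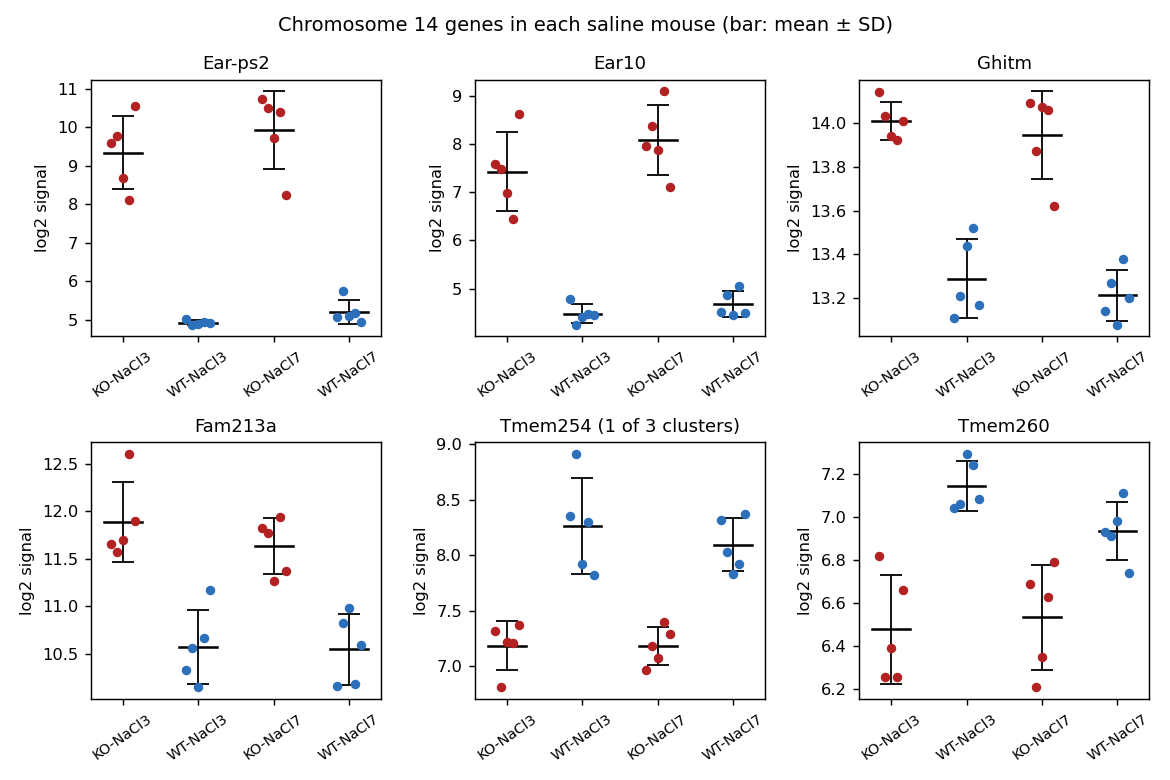
Log2 signal of 6 chromosome 14 genes in each of the 20 saline mice, KO left of WT on each day. Points are mice, horizontal lines the group means and bars the SD (n = 5). Ear-ps2, Ear10, Ghitm and Fam213a lie higher in every KO mouse than in any WT mouse, and the Tmem254 cluster lies lower, while for Tmem260 the highest KO mice, at 6.82 and 6.79, overlap the lowest WT mouse, at 6.74.

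The other named genes on this stretch changed less. Rab2b, a small GTPase of the secretory pathway, rose by 0.53 (6.05 ± 0.23 in KO mice and 5.52 ± 0.17 in WT mice, SD, adjusted p = 0.0267). Tmem260 fell by 0.53 on the log2 scale (6.51 ± 0.24 in KO mice and 7.04 ± 0.16 in WT mice, adjusted p = 0.0217), and the homeobox gene Homez by 0.35 (adjusted p = 0.0442). With single mice left out, Rab2b passed in 16 of 20 fits, Tmem260 in 18 and Homez in 5. Ear-ps2, Ear10, Ear-ps9, the Ear12, Ear2 and Ear3 cluster, Ghitm and the 3 Tmem254 clusters passed in all 20. These clusters also passed under every other alternative in which they could be tested. Filters on signal or on symbols left some of them out.

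The doxorubicin-treated mice, in which no array was shared with the saline comparison, gave a second reading of the same genotypes. In them 13 of 65956 clusters differed between KO and WT mice (0.0197%), and 11 of the 13 were among the 20 near Sftpd. Another was Ebpl, also on chromosome 14 and just past the window, at 20.15 Mb. It differed by 0.62 after doxorubicin (adjusted p = 0.0168) and by 0.36 after saline (adjusted p = 0.0909). The last lay on chromosome 19. All 20 near Sftpd had the same sign after doxorubicin as after saline, and all 20 had an unadjusted p under 0.05, as did 8.37% of all clusters. Of the 47 clusters that passed elsewhere, 41 had the same sign, 8 had an unadjusted p under 0.05 and none passed. The share of all clusters with the same sign is not given here, so the sign counts have no baseline. The median size of the difference was 0.94 in saline mice near Sftpd, and the median after doxorubicin, signed by the saline direction, was 0.71. Elsewhere these values were 0.52 and 0.12. The clusters were chosen by the saline test, a choice that favours large saline differences. A smaller value after doxorubicin was thus partly built in, near Sftpd and elsewhere.

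Fam213a differed by 1.3 after doxorubicin (adjusted p = 2.12e-06) and by 1.20 after saline. The ribonucleases differed by less after doxorubicin: 2.55 for Ear-ps2, where KO mice averaged 7.92 ± 0.42 and WT mice 5.37 ± 0.47, and 1.75 for Ear10, where KO mice averaged 6.45 ± 0.30 and WT mice 4.70 ± 0.38 (SD, n = 10 each). A direct test of whether the genotype difference itself differed between saline and doxorubicin called 0 of 65956 clusters (0%) in limma, with 3858 at an unadjusted p under 0.05. Ear-ps2 had the smallest p in it, with an adjusted p of 0.136 that 1 other cluster shared.

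**Figure D3:**
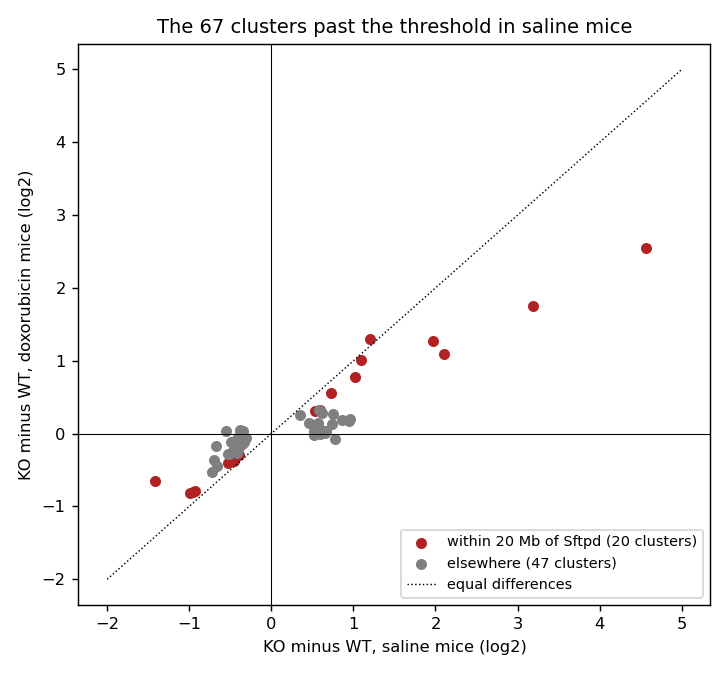
KO minus WT difference (log2) in doxorubicin mice against that in saline mice for the 67 clusters that passed in saline mice. Red points lie within 20 Mb of Sftpd and grey points elsewhere, and the dotted line marks equal differences. The 20 red points all keep their sign, and the grey points have a median of 0.12 in the saline direction on the doxorubicin axis, with Gm25160 the farthest from 0 at -0.53.

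Away from chromosome 14, few named genes passed. Gzmk, the granzyme K gene of cytotoxic lymphocytes, averaged 4.69 ± 0.13 in KO mice and 5.22 ± 0.28 in WT mice (SD, n = 10 each, difference -0.53, adjusted p = 0.041). Prpf38b, a gene related to a splicing factor, averaged 10.93 ± 0.17 in KO mice and 10.58 ± 0.11 in WT mice (difference 0.35, adjusted p = 0.0442). The vomeronasal receptor gene Vmn1r188 and the odorant receptor gene Olfr1474 differed by -0.52 and -0.38 (adjusted p = 0.0368 and 0.0442). Prpf38b was above background, and the other 3 genes lay under the highest background probe set in both genotypes. These 4 calls depended on single mice: with 1 mouse left out in turn they passed in 8, 5, 10 and 6 of 20 fits. Among the 47 clusters away from Sftpd, 5 passed in all 20 fits, against 14 of the 20 near it. The brightest of those 5, chosen after its values were seen, was 2610005L07Rik on chromosome 8, with 12.43 ± 0.19 in KO mice and 11.86 ± 0.16 in WT mice (adjusted p = 0.00974, difference after doxorubicin 0.12).

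The spread of the arrays moved with genotype, as given above. With each array's interquartile range as a covariate 8 clusters passed, all of them among the 67 and within 20 Mb of Sftpd. They were Ear-ps2, Ear-ps9, Ear10, the Ear12, Ear2 and Ear3 cluster, Ghitm and the 3 Tmem254 clusters. In that fit Ear-ps2 differed by 4.67 (adjusted p = 1.64e-04), Ghitm by 0.81 (adjusted p = 0.00449) and Fam213a by 0.74 (adjusted p = 0.537). The other 12 of the 20 clusters near Sftpd and all 47 elsewhere did not pass. All 67 kept their sign in that fit. The median difference, signed by the saline direction, was 0.76 near Sftpd with the covariate and 0.94 without it, and 0.38 and 0.52 elsewhere. The median SE was 0.17 with the covariate and 0.12 without it near Sftpd, and 0.12 and 0.09 elsewhere. The part of the array spread in these differences was not tested further.

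The comparison was also made within each day. On day 3, 16 clusters passed (0.0243%), 10 higher and 6 lower in KO mice. On day 7, 8 passed (0.0121%), 6 higher and 2 lower. Ear-ps2, Ear-ps9, Ear10, Ghitm and the Ear12, Ear2 and Ear3 cluster passed on both days. Ear-ps2 differed by 4.42 on day 3 and 4.72 on day 7, and Ghitm by 0.72 on day 3 and 0.73 on day 7. No cluster passed the limma test of genotype by day, in which the smallest adjusted p was 0.665 and 4521 clusters had an unadjusted p under 0.05.

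Cd55, on chromosome 1, passed on day 3 alone. It encodes decay-accelerating factor, which protects host cells from complement. It measured 15.30, 15.99, 15.01, 15.30 and 15.74 in KO-NaCl3 mice, against 13.70, 12.79, 13.12, 14.48 and 13.47 in WT-NaCl3 mice. On day 7 it measured 16.18, 15.26, 15.65, 15.28 and 15.11 in KO-NaCl7 mice, against 15.33, 16.48, 15.70, 16.50 and 15.08 in WT-NaCl7 mice. The day 3 groups did not overlap and the day 7 groups did, and the WT-NaCl3 mice stood below the other 3 groups. The difference was 1.96 on day 3 (adjusted p = 0.0377) and -0.32 on day 7 (adjusted p = 0.608), and its change between days, -2.28, did not pass (adjusted p = 0.665). With 1 day 3 mouse left out in turn, Cd55 passed in 2 of 10 fits, with adjusted p between 0.0101 and 0.151. The predicted gene Gm15675, next to Cd55, gave 2.09 on day 3 and -0.29 on day 7.

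The gasdermin C genes code for pore-forming proteins of the gut epithelium. The study also measured them by RT-qPCR and reported increased expression in the jejunum of KO mice. In the saline arrays their means over both days were higher in KO mice, but the genes did not pass. Agreement between the methods was not tested. Gsdmc2 measured 17.68, 17.60, 15.75, 14.50 and 17.54 in KO-NaCl3 mice, against 15.42, 12.44, 11.97, 16.18 and 15.10 in WT-NaCl3 mice. On day 7 it measured 17.61, 16.97, 17.09, 17.00 and 16.14 in KO-NaCl7 mice, against 15.75, 17.89, 16.81, 18.58 and 15.48 in WT-NaCl7 mice. The groups overlapped on both days, and mice 44 and 46 of WT-NaCl3 were the lowest. Over both days the difference was 1.23 for Gsdmc2 (two-sided exact permutation test within days, p = 0.085), 1.23 for Gsdmc3 (p = 0.0933 by the same exact test) and 1.02 for Gsdmc4 (p = 0.123 by the same exact test). The differences were 2.39, 2.45 and 2.09 on day 3 and 0.06, 0.01 and -0.05 on day 7, and on neither day did they pass in limma (Gsdmc2 adjusted p = 0.413 on day 3). Without mice 44 and 46 the differences over both days were 0.55, 0.54 and 0.34.

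Those 2 mice were also far lower in Pla2g4c, a cytosolic phospholipase A2 gene. Pla2g4c measured 5.99 and 5.46 in mice 44 and 46, against 13.83, 16.47 and 15.07 in the other 3 WT-NaCl3 mice and 11.21 to 18.28 in KO-NaCl3 mice. Over both days it differed by 2.22 (two-sided exact permutation test, p = 0.187), with 4.64 on day 3 and -0.20 on day 7. Without mice 44 and 46 the difference over both days was 0.34 (same exact test, p = 0.769). Without these 2 mice 26 clusters passed over both days, 21 of them among the 67, and 13 lay within 20 Mb of Sftpd. Of the genes the study followed by RT-qPCR, Tnf (-0.07), Il1b (-0.09), Casp1 (0.10) and Bax (-0.13) did not pass.

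**Figure D4:**
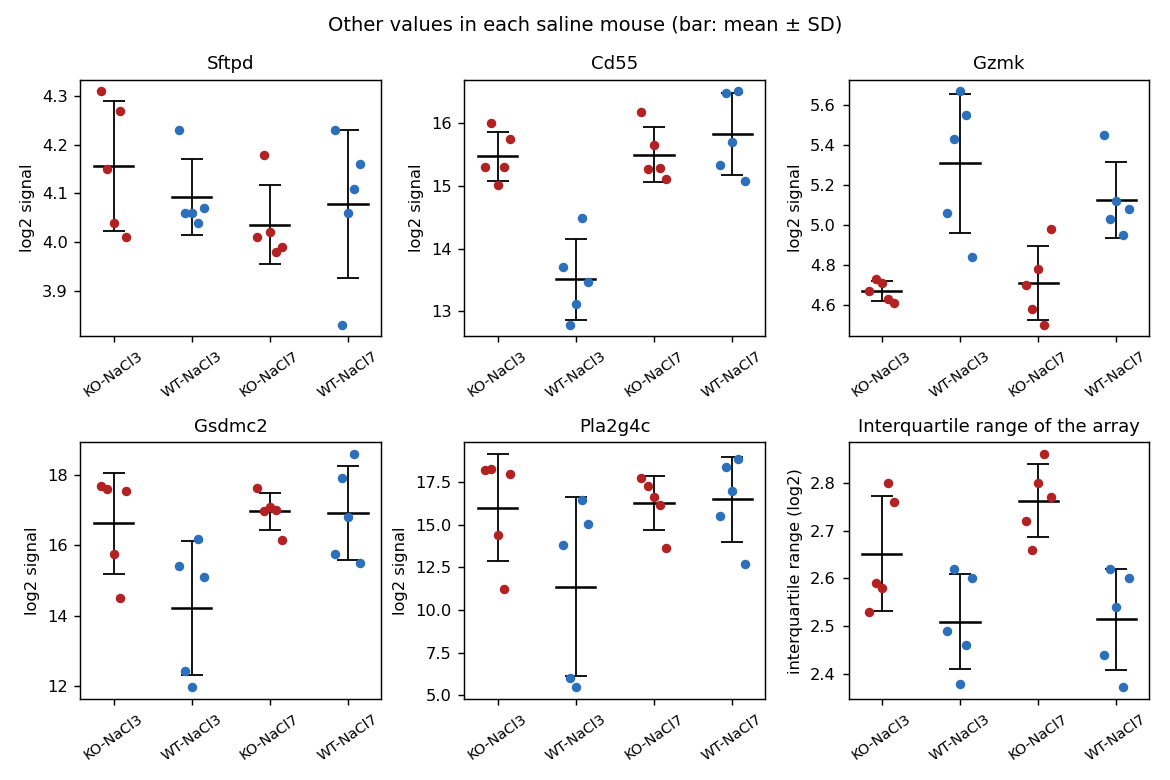
Log2 signal of Sftpd, Cd55, Gzmk, Gsdmc2 and Pla2g4c, and the interquartile range of each array, in each of the 20 saline mice, KO left of WT on each day. Points are mice, horizontal lines the means and bars the SD (n = 5). Sftpd stays between 3.83 and 4.31 in all mice, 2 WT-NaCl3 mice fall to 5.99 and 5.46 in Pla2g4c, and the interquartile range is higher in KO mice.

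Beyond single genes, 47 lists of pathway and cell type genes, 539 measured genes in all, were read by their counts and medians. Of the 539 genes 1 passed over both days, Ear1 in the eosinophil list, and 58 (10.8%) had an unadjusted p under 0.05, against 16.5% of all genes. The median difference over all 36155 genes was -0.04, and over the 10669 genes above background in a genotype it was 0.06. The difference was above 0 in 13832 of the 36155 genes and in 7072 of the 10669. The share of genes above 0 thus depends on signal level, which the sign counts of single lists do not take into account. The lists described next had nearly all their genes on 1 side, and none of their members passed. Other lists, not described further, were similarly one-sided. Among them, DNA replication and mitosis had 0 of 14 genes above 0, and the macrophage list 1 of 12. Lipid absorption and chylomicrons had 14 of 15 above 0, and fatty acid synthesis 10 of 11. None of these genes passed either.

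In the interferon response list 0 of 18 genes had a difference above 0, with a median of -0.32 over both days, -0.65 on day 3 and -0.03 on day 7. In the T cell and intraepithelial lymphocyte list 0 of 14 did, with a median of -0.29 over both days, -0.64 on day 3 and 0.15 on day 7. The mean level of the T cell list was 6.28 to 6.98 in KO-NaCl3 mice and 7.11 to 7.76 in WT-NaCl3 mice, without overlap, and 6.61 to 7.30 in KO-NaCl7 mice and 6.01 to 7.27 in WT-NaCl7 mice, with overlap. The granzyme genes Gzma and Gzmb had the lowest values, -0.69 and -0.65, and neither passed. The 9 genes of MHC class II antigen presentation had a median of -1.07 on day 3 and 0.20 on day 7, and 0 of the 9 were above 0 on day 3.

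The tuft cell list, which marks the chemosensory cells of the epithelium, lay the other way. All 10 of its genes had a difference above 0 over both days, with medians of 0.95 on day 3 and -0.09 on day 7. On day 7 alone 3 of the 10 were above 0. The list's mean level was 6.89 to 8.33 in KO-NaCl3 mice and 6.52 to 7.26 in WT-NaCl3 mice, with overlap. On day 7 it was 6.91 to 8.27 in KO-NaCl7 mice and 6.995 to 8.27 in WT-NaCl7 mice. WT-NaCl3 was the group set apart, with a median of 6.922. The medians were 7.725 in KO-NaCl3, 7.531 in KO-NaCl7 and 7.679 in WT-NaCl7 mice. Dclk1 and Alox5ap, which tuft cells express, had differences of 0.63 and 0.66 over both days. All 12 smooth muscle genes were above 0 over both days, with medians of 0.45 on day 3 and 0.02 on day 7. Their mean level was 11.22 to 12.28 in KO-NaCl3 mice and 11.04 to 11.73 in WT-NaCl3 mice. On day 7 it was 11.46 to 11.85 in KO-NaCl7 mice and 11.37 to 12.03 in WT-NaCl7 mice. The part of the muscle content of each sample in the other differences was not tested beyond a fit with the list's mean as a covariate, in which 801 clusters passed and all 67 were among them.

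A pair of further lists carried large single values. In the Paneth cell list, mouse 254 of KO-NaCl3 had a mean level of 11.93, while the next lowest of the 20 mice had 15.49, and the list's median difference was -0.43. The mast cell list had a median difference of 0.21 over both days. The mast cell protease genes Mcpt1, a member of that list, and Mcpt9, which is outside it and was read in addition, had large values. Both also lie on chromosome 14, within 20 Mb of Sftpd, and their values had a wide spread between mice. Mcpt1 measured 6.86 to 13.63 in KO mice (median 8.59) and 6.10 to 9.45 in WT mice (median 7.28), a difference of 1.72 (adjusted p = 0.27). Mcpt9 measured 5.47 to 10.59 in KO mice (median 6.52) and 4.55 to 5.84 in WT mice (median 5.07), a difference of 2.08 (adjusted p = 0.114), with 2.67 after doxorubicin. Neither gene passed in either set of mice, and the genotypes overlapped.

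**Figure D5:**
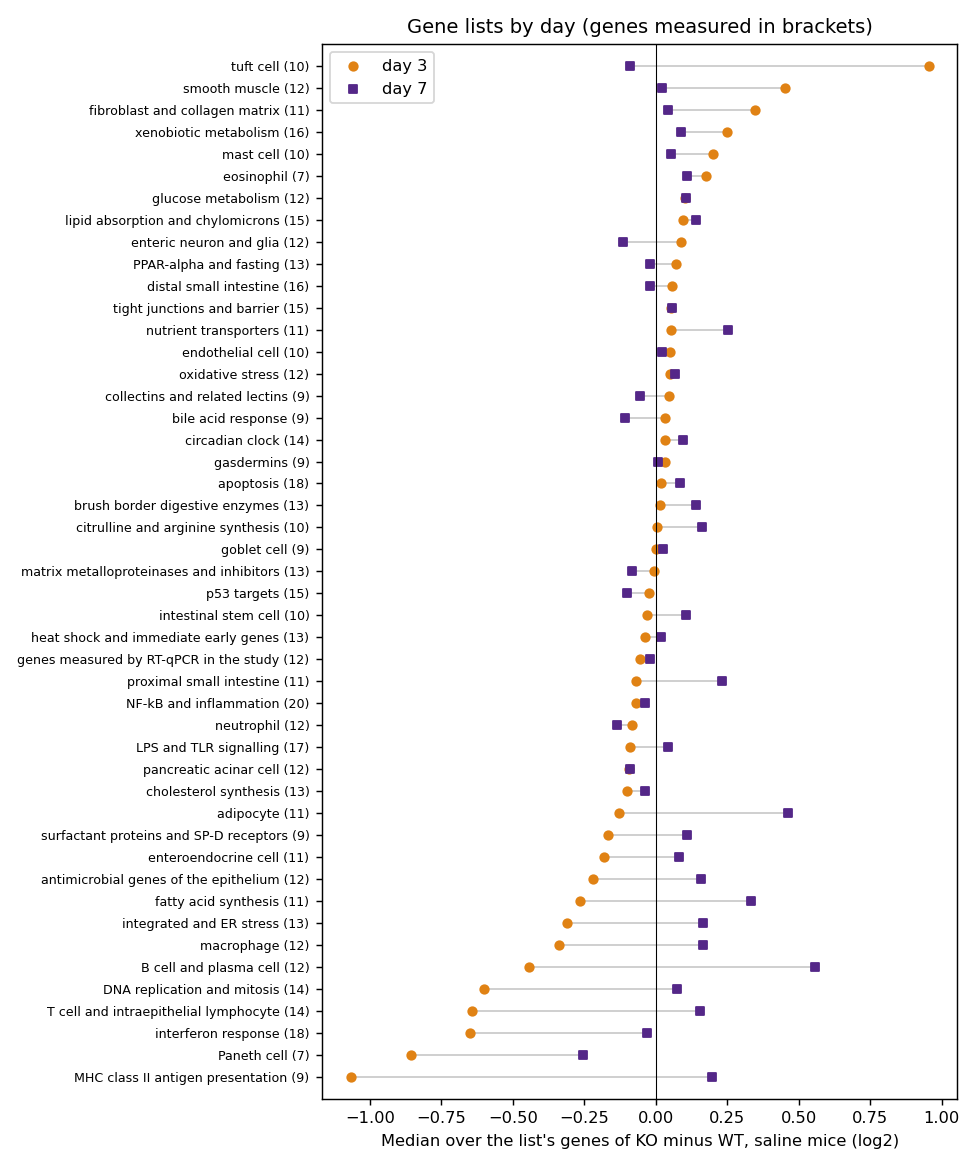
Median KO minus WT difference (log2) of each of the 47 gene lists in saline mice, on day 3 (orange circles) and day 7 (purple squares), with the number of genes measured in brackets. Lists are ordered by their day 3 median. The tuft cell list stands at 0.95 and the MHC class II list at -1.07 on day 3, while on day 7 the same lists stand at -0.09 and 0.20.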

How the data were processed

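RNA from jejunum was hybridized to Affymetrix Mouse Transcriptome Array 1.0 chips. The values used are the log2 signals deposited by the authors, 1 per probe set and array. The sources differ on how they were made: the submitters' notes list RMA, Affymetrix Expression Console and Transcriptome Analysis Console, and the study's methods describe limma with normexp for background and quantile scaling. Gene symbols and positions came from the authors' KO day 3 table, whose deposited log2 bi-weight averages agreed within 0.1 with the medians of the KO-NaCl3 arrays in 97.1% of clusters. Its fold changes and p-values, the authors' own comparison, were not used. Positions matched GRCm38, since 28366 of 28563 genes found in RefSeq (99.3%) overlapped.

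Of 72688 probe sets 6732 controls were left out, and no filter on low values was applied. Groups came from the GEO labels. The saline arrays were fitted with limma 3.58.1 (R 4.3.3, lmFit and eBayes) as 4 group means, the contrast averaged the genotype difference over days, with Benjamini-Hochberg adjustment across the 65956 clusters and a threshold of 0.05. The doxorubicin arrays were fitted apart. Single genes were tested by enumerating all 63504 arrangements within days (smallest p 3.15e-05). The scripts were tested on simulated data. A gene was read from the brightest cluster carrying its symbol alone. Genes were named by rule: Sftpd, up to 15 largest differences per direction among those that passed, up to 5 for each day, the RT-qPCR genes, the 6 nearest Sftpd, and list members that passed or, failing that, the 2 largest of a list. The Ear family, clusters with several symbols or a clone name, other eosinophil genes and Mcpt9 were read in addition to this rule. The members and the gene lists were chosen with earlier results of these data known. The number of arrays limits the precision: the median SE of a difference was 0.0988. Alternatives covered the samples, terms, filters, scaling, covariates and each mouse left out. Figures were drawn with matplotlib 3.10.9.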

Additional observations from a re-analysis of the deposited data

Results flagged for a closer look

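In 31 clusters, most of them named above, each group of 5 saline mice was searched for a mouse set apart from the other 4 by more than 0.71 of the group's range. Of 124 such groups 5 held one, and chance alone gives about 1 in 20. In WT-NaCl3, mouse 190 had 6.37 in the Plac9a cluster at 25887932, while the others had 5.95 to 6.04. In KO-NaCl3, mouse 182 had 6.81 and 6.24 in the Tmem254 clusters at 25923298 and 26036262, while the others had 7.21 to 7.37 and 6.60 to 6.74. Mouse 182 is thus on the side away from the WT mice in both. For Sftpd, mouse 200 of KO-NaCl7 had 4.18 against 3.98 to 4.02 in the others, and mouse 14 of WT-NaCl3 had 4.23 against 4.04 to 4.07.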

How the results depend on the processing

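The 8 clusters of Ear-ps2, Ear10, Ear-ps9, Ear12 with Ear2 and Ear3, Ghitm and Tmem254 kept their direction and passed under all alternatives in which they could be tested, and no named gene that passed changed sign. The count over both days, 67, was far less stable. It was 395 in a fit of all 40 arrays, 392 with array weights, 369 with each array centred on its median, 801 with a smooth muscle covariate and 147 with a circadian clock covariate. It was 27 after quantile normalization again, 22 for clusters above the highest background, 31 for clusters with 1 symbol or for means over a gene's clusters, 8 with the interquartile range as covariate and 26 without mice 44 and 46 of WT-NaCl3. Chosen after seeing the data, as was leaving mice 44 and 46 out of the Pla2g4c value, leaving out mouse 254 of KO-NaCl3 as well gave 15, and quantile normalization with the interquartile range as covariate gave 9. With single mice left out it ran between 21 (without mouse 206 of WT-NaCl7) and 154 (without mouse 190 of WT-NaCl3). It was 44 or fewer without any one of mice 254, 292, 114, 224 and 272 (KO) or 14, 46, 28, 112 and 206 (WT), and 130 or more without mice 190, 104 or 296 (WT). The cause was not tested.

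Within 10 Mb of Sftpd 11 clusters passed, and 8 to 12 with single mice left out. The count was 20 for a window of 20 Mb, 26 with the smooth muscle covariate, 7 above the highest background and 7 without the 3 mice named above, and 5 in both fits with the interquartile range. On day 3, where 16 passed, 3 did in a fit of that day's arrays alone, and 3 (without KO mouse 292) to 22 (without KO mouse 220) with single mice left out. On day 7, where 8 passed, 2 did in that day's arrays alone, 51 with all 40 arrays, 16 after quantile normalization, and 3 (without KO mouse 114) to 40 (without WT mouse 296) with single mice left out. Genotype by day gave 0 in all 21 alternatives. After doxorubicin 13 passed, and 7 to 14 with single mice left out. Sftpd differed by 0.11 after quantile normalization (exact permutation p = 0.0353), with KO mice higher, and by -0.02 to 0.03 with single mice left out. With single mice left out the difference ran between 0.94 and 1.49 for Gsdmc2, 0.946 and 1.503 for Gsdmc3, and 0.75 and 1.28 for Gsdmc4, and the lowest exact permutation p, 0.0339 and 0.0358 for the first 2, came without mouse 206 of WT-NaCl7. Gsdmc2 also passed 0.05 without mouse 254 of KO-NaCl3. No paired analysis was possible because each mouse has a number of its own.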
